A study of Schizosaccharomyces pombe with 6 samples.

Results

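The nuclear mRNAs for the mitochondrial respiratory chain and the ATP synthase were followed in *aal1* pull-downs (ChIRP-seq) from fission yeast. Their 53 genes were taken by name: 49 have a symbol of *atp*, *cox*, *qcr* or *sdh* followed by digits, and *cyc1*, *cyt1*, *rip1* and *ndi1* were added. Mitochondrially encoded genes were left out. The table counts 7001 annotated genes, of which 5111 are nuclear mRNAs. By their annotated products, 35 of the 53 genes encode structural subunits and 18 encode assembly factors, chaperones or similar helpers. Some products sit loosely under their symbol. *cox24* is annotated as a protein of the small mitochondrial ribosomal subunit, and Qcr1 is also a subunit of the mitochondrial processing peptidase.

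*aal1* is a long non-coding RNA of 783 nt, and biotinylated antisense DNA probes were used to fish it out of formaldehyde-fixed cells together with whatever RNA is held to it. All cells were in the 972h- lineage, in minimal medium (EMMG), on Day 6 of stationary phase, when glucose has run out. The 3 strains were wild type, cells that overexpress *aal1* from a plasmid with the *P41nmt1* promoter, which thiamine shuts off (*aal1-pOE*), and cells whose *aal1* gene was deleted with CRISPR-Cas9 (*aal1∆*). Each strain gave 2 libraries, grown and processed independently. The *aal1-pOE* cells also carry the *leu1-32* mutation, so plasmid and background cannot be told apart from *aal1* itself in that strain, and empty-vector libraries were not analysed here. The *aal1* gene lies largely opposite an antisense gene, SPNCRNA.401. Loss of *aal1* and loss of SPNCRNA.401 therefore cannot be told apart in *aal1∆*. The sources used here do not say whether both *aal1∆* libraries came from one deletion clone.

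Respiration moves electrons from NADH and succinate through membrane complexes to oxygen, and the proton gradient made on the way drives the ATP synthase. Fission yeast has no proton-pumping complex I and oxidises NADH with single-chain dehydrogenases such as Ndi1. Succinate dehydrogenase (complex II) also feeds electrons into ubiquinone, complex III passes them to cytochrome c, and cytochrome c oxidase (complex IV) hands them to oxygen. Most subunits are encoded in the nucleus, translated in the cytoplasm and imported, while a few core proteins are made inside the mitochondrion. Without glucose to ferment, cells rely on it for ATP.

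The *aal1∆* pull-downs set the background of the method, since they held 0 counts of *aal1*. The wild-type libraries held 28 and 147 counts of *aal1*, and the *aal1-pOE* libraries 9540 and 20832. Library totals ran from 40653 (*aal1∆* replicate 2) to 175263 counts (*aal1∆* replicate 1), and rRNA took 25.7% to 54.4% of a library. Levels are therefore given as CPM, the counts scaled to 1000000 nuclear mRNA counts of the same library, of which a library held 22731 to 93940, and paired values of a strain are replicate 1 and then replicate 2. A single library could miss an mRNA at up to 31.9 to 132 CPM, the level that an observed count of 0 still allows (3 counts). Fewer cells and less RNA per cell cannot be told apart in such bulk samples, nor can recovery be told apart from the level of an mRNA in the cell.

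Base-pairing with an mRNA is one way in which a long non-coding RNA can act, so the 53 transcripts were searched for their longest unbroken stretch complementary to *aal1*. The stretches were 8 to 17 nt long with a median of 11 nt, and the median over all 5111 nuclear mRNAs was also 11 nt. A stretch of at least 12 nt occurred in 9 of the 53 (17%) and in 24.3% of all nuclear mRNAs. The longest lies in the 3′ UTR of *cox14*, a complex IV assembly factor, and a stretch of 17 nt or more occurred in 0.157% of nuclear mRNAs. The same place in *aal1* also matches 12 nt of the coding region of *atp3*, the gamma subunit of the ATP synthase, and the 3′ UTR of *cyc1* has the next longest stretch, 13 nt. These 3 mRNAs are shown, as those with the longest stretches and the one that shares a site, with the sequence read 5′ to 3′ from RefSeq assembly ASM294v3 and the complementary stretch in capitals. They were chosen after their values were seen. The *cox14* window is chrIII:59919-59946 on the minus strand, the *atp3* window chrII:1086438-1086465 on the plus strand, and the *cyc1* window chrIII:1715187-1715214 on the plus strand. The *aal1* windows lie on the minus strand at chrII:2580761-2580788 for *cox14*, chrII:2580764-2580791 for *atp3* and chrII:2581025-2581052 for *cyc1*.
cox14: ccttaTTATTATTACTTCGTTTtgcttg
aal1 facing cox14: acagtAAACGAAGTAATAATAAatgggc
atp3: cgcactcaATTACTTCGTTTctgtcccg
aal1 facing atp3: cctacagtAAACGAAGTAATaataaatg
cyc1: tttaccaAAAAAAAATAAAAcaacatgg
aal1 facing cyc1: ttttattTTTTATTTTTTTTacatattt

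The *cox14* and *atp3* stretches both face bases 400 onwards of *aal1*, and the *cyc1* stretch is a run of A and T only. Of these, *cox14* and *atp3* were thinly counted. *cox14* had 4 counts in *aal1-pOE* replicate 1 and 0 in the other 5 libraries. *atp3* was counted 4 and 3 times in wild type, 5 and 19 times in *aal1-pOE* and 11 and 0 times in *aal1∆*. Both thus had their highest count in 1 *aal1-pOE* library, with few or no counts in the other. A shared stretch is a description of the letters, not of a contact. As a control for composition, the longest stretch of the same sense as *aal1* had a median of 10 nt among the 53 mRNAs and reached 16 nt, against a median of 11 nt and a maximum of 21 nt over all nuclear mRNAs.

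**Figure D1:**
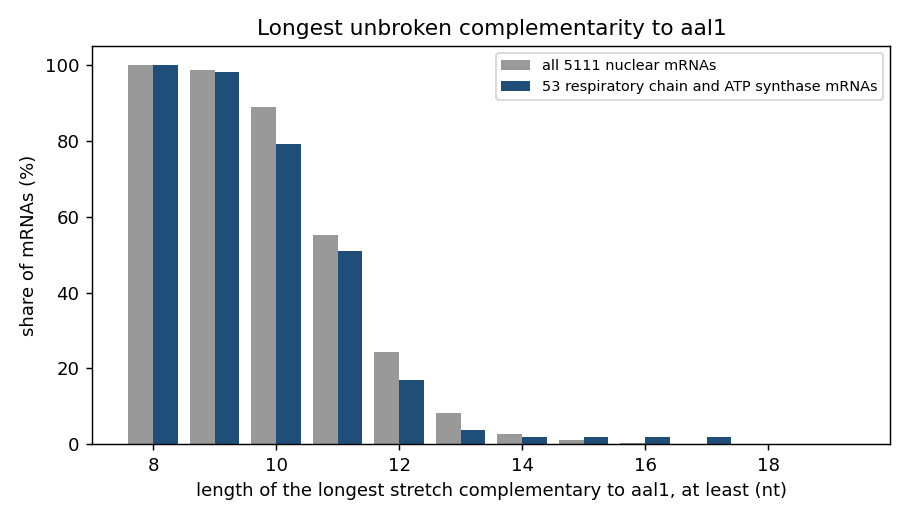
Share of mRNAs (y axis, %) whose longest unbroken stretch complementary to *aal1* has at least the length on the x axis (nt), for all 5111 nuclear mRNAs (grey) and the 53 respiratory chain and ATP synthase mRNAs (blue). The blue bars lie at or below the grey bars up to 14 nt, and 1 mRNA, *cox14*, reaches 17 nt. The sets were not matched for transcript length, and the 53 mRNAs are shorter.

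The summed counts of the 53 mRNAs were 543 and 373 for wild type, 515 and 457 for *aal1-pOE* and 1077 and 191 for *aal1∆*. As a share of nuclear mRNA counts this was 0.925% and 1.02% for wild type (95% Wilson intervals 0.850 to 1.01 and 0.919 to 1.12), 1.04% and 1.22% for *aal1-pOE* (0.952 to 1.13 and 1.12 to 1.34), and 1.15% and 0.840% for *aal1∆* (1.08 to 1.22 and 0.730 to 0.968). The strain without *aal1* thus recovered these mRNAs at both the lowest and one of the highest shares, and its 2 libraries spanned both wild-type libraries. The intervals cover counting error alone, and the sources describe no collapsing of PCR copies. By strain the share was 0.971 ± 0.0650% for wild type, 1.13 ± 0.131% for *aal1-pOE* and 0.993 ± 0.217% for *aal1∆* (SD, n = 2 each). Exact two-sided permutation tests gave p = 1 for wild type against *aal1∆*, p = 0.667 for *aal1-pOE* against *aal1∆* and p = 0.333 for *aal1-pOE* against wild type, where 0.333 is the smallest p that 2 libraries against 2 allow. Leaving out 1 library turned the sign of both differences against *aal1∆*: the difference of -0.0226 percentage points for wild type became 0.0233 without wild-type replicate 1 and 0.130 without *aal1∆* replicate 1, and that of 0.137 for *aal1-pOE* became -0.0160 without *aal1∆* replicate 2.

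Few mRNAs carried most of this signal. Of 3156 counts over the 6 libraries, the 10 most counted mRNAs took 2283 (72.3%), while 17 genes had 5 counts or fewer. Altogether 49 genes were detected, 15 of them in every library, and *atp10*, *sdh6*, *cox1101* and *cox1102* had no count. *cox1101* and *cox1102* are near-identical copies, with 3 differing bases over 2337 nt, so most reads from them could not be told apart. The number of genes detected ran from 24 in the shallowest library to 41 in the deepest. A share of 7.55% of the 53 genes had no count at all, against 9.10% of all nuclear mRNAs, and 62.3% had at least 10 counts in sum, against 61.7%.

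Scaled by annotated exon length, the mRNAs of structural subunits stood well above those of assembly factors. The subunits had a median of 177 CPM per kb (range 9.26 to 984, mean of 6 libraries), and the assembly factors one of 6.23 (range 0 to 56.1). The highest of the latter was *atp12*, an F1 chaperone, with 20 counts in all. Over all 53 genes the median was 97.6 CPM per kb, against 30.8 for all nuclear mRNAs. The 53 transcripts are also shorter, with a median of 1022 nt against 1681 nt. In each of the 6 libraries, with or without *aal1*, the subunits took 0.796% to 1.21% of nuclear mRNA counts and the assembly factors 0.0107% to 0.0440%. These are levels, not differences between strains.

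**Figure D2:**
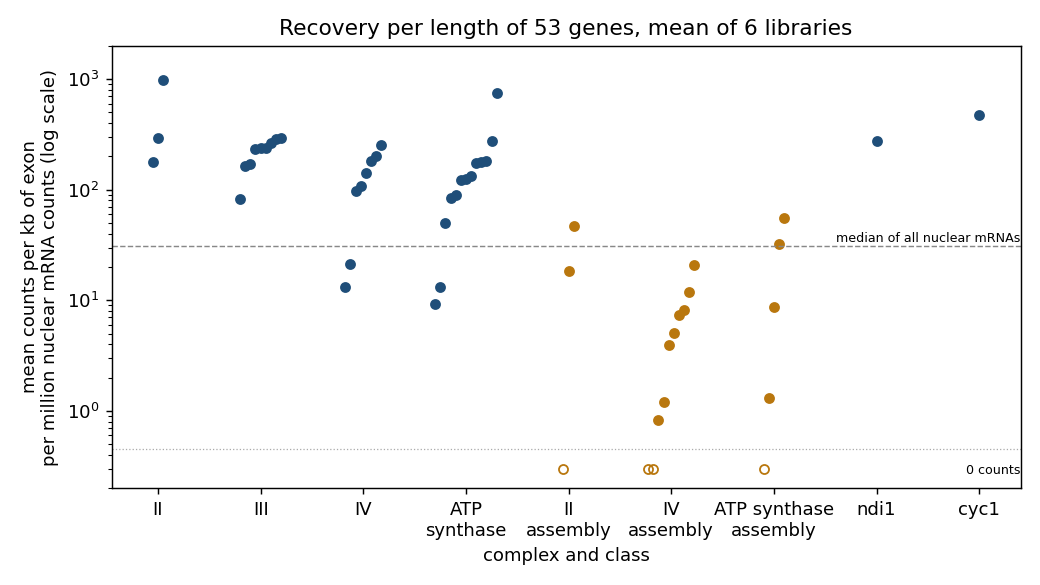
CPM (scaled to nuclear mRNA counts) per kb of exon (y axis, log scale, mean of 6 libraries) for each of the 53 genes, by complex and class on the x axis, with subunits in blue, assembly factors in orange and genes without counts as open symbols. All 9 complex III subunits lie above the median of all nuclear mRNAs (dashed line, 30.8), whereas 3 of the 18 assembly genes do.

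The mRNAs for the entry points of electrons were among the best recovered. *ndi1* (SPBC947.15c, chrII:641294-643906 in ASM294v3), the NADH dehydrogenase, was counted 34 and 33 times in wild type, 29 and 24 times in *aal1-pOE* and 69 and 21 times in *aal1∆*. Its level was 579 and 900 CPM for wild type, 584 and 642 for *aal1-pOE*, and 735 and 924 for *aal1∆*. Both *aal1-pOE* libraries lay below both *aal1∆* libraries, and the wild-type libraries lay on either side of *aal1∆* replicate 1. Summed as a share, *ndi1* took 0.0613 ± 0.00409% of nuclear mRNA counts in *aal1-pOE* and 0.0829 ± 0.0134% in *aal1∆* (SD, n = 2; exact permutation p = 0.333, the smallest possible).

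*sdh1* (SPAC1556.02c, chrI:3796280-3798462), the flavoprotein of complex II that takes up electrons from succinate, was the most counted of the 53 mRNAs in all 6 libraries. It was counted 95 and 81 times in wild type, 83 and 93 times in *aal1-pOE* and 236 and 38 times in *aal1∆*. Its level was 1618 and 2208 CPM, 1673 and 2489 CPM, and 2512 and 1672 CPM in the same order, so the ranges of the 3 strains overlapped. As the deepest mRNA of the set it gives the tightest fold changes, and it was chosen for them after its values were seen. Its log2 fold change by edgeR's quasi-likelihood test was -0.20 (SE 0.403) for wild type against *aal1∆*, with a 95% interval of -1.01 to 0.60. It was -0.02 (SE 0.402, interval -0.82 to 0.79) for *aal1-pOE* against *aal1∆* and 0.19 (SE 0.404, interval -0.62 to 0.99) for *aal1-pOE* against wild type, with adjusted p of 0.999, 0.9997 and 0.995. The sign of each of these small changes turned when single libraries were left out.

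The other subunits of complex II were counted less often. Per kb of exon *sdh3* and *sdh2* stood at 294 and 177 CPM (mean of 6 libraries), against 984 for *sdh1*. *sdh3* (SPCC330.12c, chrIII:135724-136648), a membrane anchor, was counted 21 and 14 times in wild type, 12 and 12 times in *aal1-pOE* and 31 and 0 times in *aal1∆*. The 0 in *aal1∆* replicate 2 allows up to 132 CPM, while its partner library had 330 CPM, close to wild type (358 and 382 CPM). The iron-sulfur subunit *sdh2* had 84 counts in all, of which 1 came from that library. Together the 3 subunits made up 0.223% and 0.275% of nuclear mRNA counts for wild type, 0.214% and 0.310% for *aal1-pOE*, and 0.327% and 0.172% for *aal1∆*. The *aal1∆* libraries were again the highest and the lowest of the 6.

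Complex III, which takes electrons from ubiquinol and pumps protons, gave 745 counts over its 9 nuclear subunits. *qcr1* (SPBP23A10.15c, chrII:2032842-2034899), a core protein, was counted 32 and 23 times in wild type, 23 and 14 times in *aal1-pOE* and 85 and 0 times in *aal1∆*. Here the *aal1∆* libraries held both extremes, with 905 CPM in one and no count in the other. *rip1* (SPBC16H5.06, chrII:2288882-2290113), the Rieske iron-sulfur protein, was counted 36 and 15 times in wild type, 23 and 6 times in *aal1-pOE* and 38 and 2 times in *aal1∆*. *cyt1* (SPBC29A3.18, chrII:2073236-2074742), cytochrome c1, had 17 and 10, 18 and 11, and 54 and 6. *qcr2* (SPCC613.10, chrIII:96627-98210), the other core protein, had 23 and 10, 6 and 12, and 32 and 4. In CPM, *rip1* was higher in both wild-type libraries (613 and 409) than in both *aal1∆* libraries (405 and 88.0), by little for the closest pair and not after the TMM normalisation used for the test below. For *cyt1* and *qcr2* the ranges of wild type and *aal1∆* overlapped. The complex as a whole took 0.235% and 0.224% of nuclear mRNA counts for wild type, 0.246% and 0.195% for *aal1-pOE*, and 0.317% and 0.141% for *aal1∆*.

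*cyc1* (SPCC191.07, chrIII:1714622-1715798), cytochrome c, differed between libraries of one strain by more than counting error. It was counted 52 and 10 times in wild type, 50 and 11 times in *aal1-pOE* and 28 and 14 times in *aal1∆*. In wild type this was 886 CPM (exact Poisson 95% interval 661 to 1161) in replicate 1 and 273 (131 to 501) in replicate 2. In *aal1-pOE* it was 1008 (748 to 1329) and 294 (147 to 527), and in *aal1∆* 298 (198 to 431) and 616 (337 to 1033). The intervals of the 2 libraries did not overlap in wild type or in *aal1-pOE*, and the *aal1∆* libraries lay between the extremes. Such spread was not particular to *cyc1*. For *atp2* the intervals did not overlap in *aal1-pOE* (627 to 1167 and 1865 to 2872) or in *aal1∆* (1469 to 2011 and 273 to 922). Per kb of exon *cyc1* ranked 3 among the 53 mRNAs, at 478 ± 277 CPM (SD over 6 libraries), behind *sdh1* at 984 ± 206 and *atp2* at 745 ± 338. Per kb of coding sequence it ranked 1. The ranges of *sdh1* and *atp2* over the 6 libraries overlapped, so their order is not fixed beyond the spread.

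**Figure D3:**
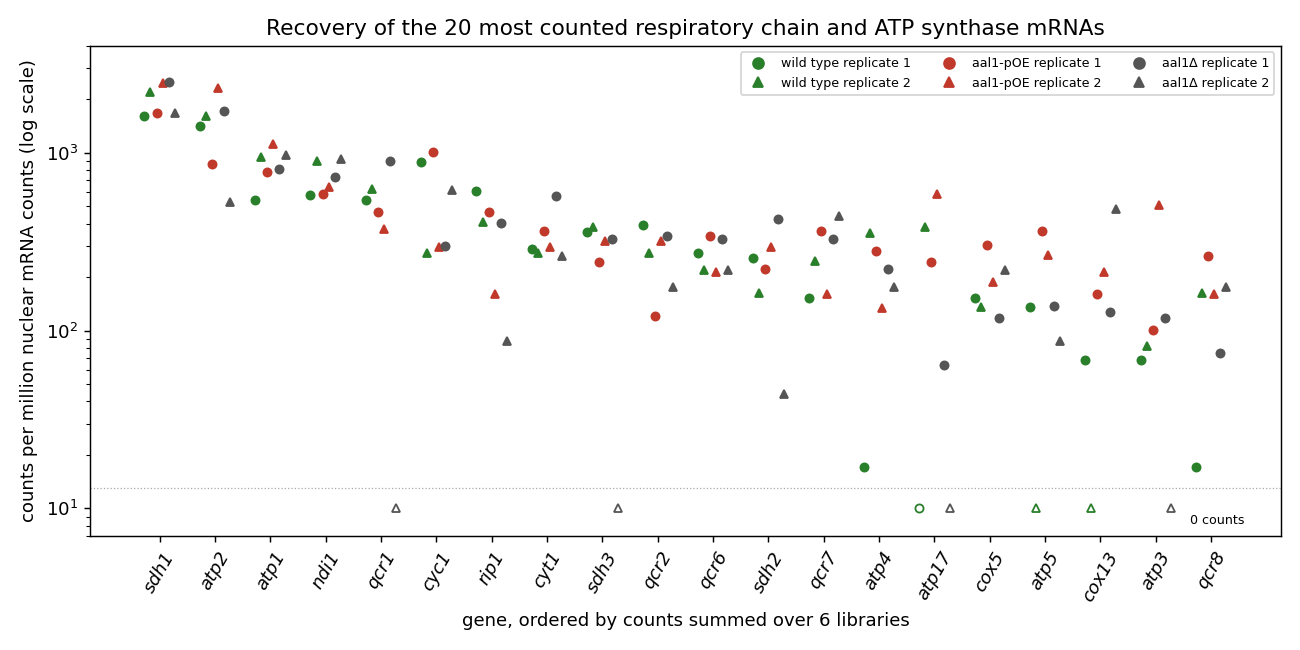
CPM (scaled to nuclear mRNA counts) (y axis, log scale) in each of the 6 libraries for the 20 most counted of the 53 mRNAs (x axis), with colour for the strain, shape for the replicate and open symbols for 0 counts. *sdh1* is the highest in every library, and the *cyc1* libraries of wild type stand at 886 and 273.

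Complex IV, the cytochrome c oxidase, was thinly covered in the nucleus-encoded part. Its 8 nuclear subunits had 168 counts, of which *cox5* had 52. They took 0.0426% and 0.0300% of nuclear mRNA counts for wild type, 0.0927% and 0.0803% for *aal1-pOE*, and 0.0351% and 0.101% for *aal1∆*. Both *aal1-pOE* libraries were above both wild-type libraries (0.0865 ± 0.00879% against 0.0363 ± 0.00891%, SD, n = 2), while 1 *aal1∆* library lay between the wild-type libraries and the other above both *aal1-pOE* libraries. The exact permutation p of 0.333 is the smallest possible. *cox4* and *cox9*, chosen after their values were seen, were not tested. *cox4* was counted 0 and 1 times in wild type, 14 and 5 times in *aal1-pOE* and 1 and 1 times in *aal1∆*. Among all tested RNAs, which do not include *cox4*, 17.8% had both *aal1-pOE* libraries above both wild-type libraries after TMM normalisation. *cox9* was counted 12 and 4 times in wild type, 0 and 8 times in *aal1-pOE* and 1 and 0 times in *aal1∆*. In CPM its wild-type and *aal1-pOE* libraries overlapped.

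The ATP synthase made up the largest summed part, 993 counts over 13 subunits. *atp2* (SPAC222.12c, chrI:968507-970400), the catalytic beta subunit of the F1 head, was counted 83 and 59 times in wild type, 43 and 87 times in *aal1-pOE* and 162 and 12 times in *aal1∆*. Its level was 1414 and 1608 CPM for wild type, 867 and 2328 for *aal1-pOE*, and 1725 and 528 for *aal1∆*. The wild-type libraries lay inside the ranges of both other strains. *atp1* (SPAC14C4.14, chrI:5256726-5261958), the alpha subunit, had 32 and 35, 39 and 42, and 76 and 22 counts. Its rank moved from 16 per kb of exon to 6 per kb of coding sequence, since its annotated transcript of 4795 nt holds 1611 nt of coding sequence. The other F1 subunits *atp3*, *atp15* and *atp16* were less counted.

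Of the stalk and membrane parts of the ATP synthase, *atp17* and *atp5* showed the largest fold changes of the 17 mRNAs that were tested. *atp17* (SPBC1604.11, chrII:3911713-3912529), the membrane subunit f, was counted 0 and 14 times in wild type, 12 and 22 times in *aal1-pOE* and 6 and 0 times in *aal1∆*. Both *aal1-pOE* libraries, at 242 and 589 CPM, lay above both *aal1∆* libraries, at 63.9 and 0, and wild type, with 0 and 382, overlapped both. *atp5* (SPCC1840.06, chrIII:2268633-2269769), a peripheral stalk subunit, was counted 8 and 0 times in wild type, 18 and 10 times in *aal1-pOE* and 13 and 2 times in *aal1∆*. Both mRNAs thus had their highest mean level with overexpressed *aal1*, from 54 and 51 counts in all, and neither difference passed the test given below. The filter for that test kept an mRNA with enough counts, for the library size, in any 2 libraries. *atp5* met this only in its *aal1-pOE* libraries, and *atp17* only in those and in wild-type replicate 2. Their high level there thus helped to bring them into the test. Their place among the 17 mRNAs is therefore partly fixed by the filter.

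**Figure D4:**
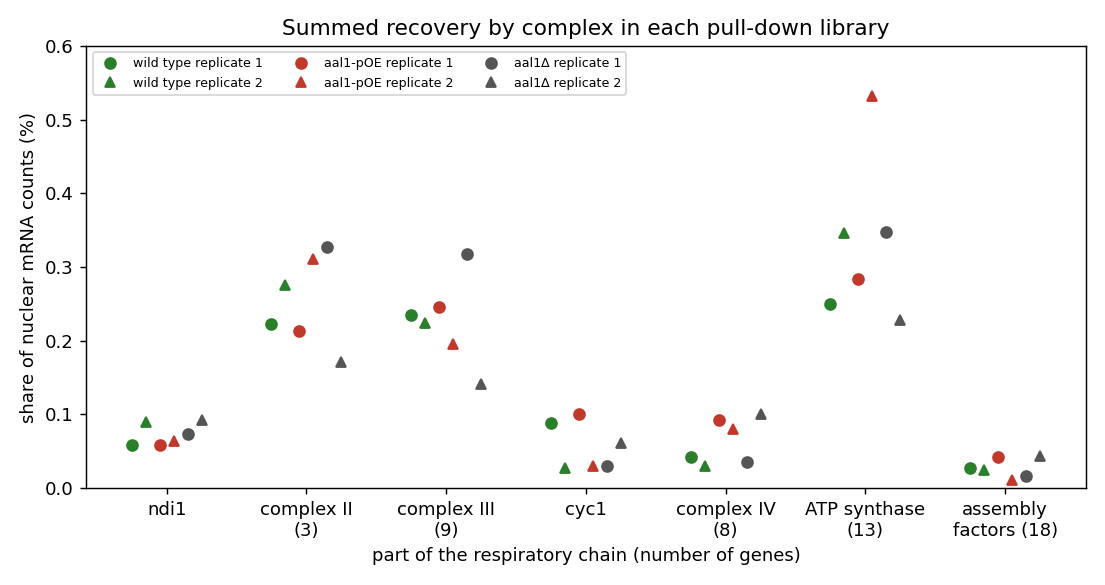
Share of nuclear mRNA counts (y axis, %) taken by *ndi1*, complex II, complex III, *cyc1*, complex IV, the ATP synthase and the assembly factors in each of the 6 libraries, with colour for the strain and shape for the replicate. The *aal1∆* libraries are both the highest and the lowest for complexes II and III, and both *aal1-pOE* libraries lie above both wild-type libraries for complex IV.

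Assembly factors left little trace. Their 18 mRNAs held 75 counts, 14 were detected and none reached the filter for testing. Some of the counts came from single libraries. Chosen after their values were seen, *atp25* had 10 of its counts in wild-type replicate 1, *sdh7* had all 8 in *aal1-pOE* replicate 1, and *atp23* had all 5 in *aal1∆* replicate 2. Summed, the assembly factors took 0.0259 ± 0.00192% of nuclear mRNA counts for wild type, 0.0265 ± 0.0224% for *aal1-pOE* and 0.0300 ± 0.0198% for *aal1∆* (SD, n = 2). Over the summed parts of the pathway, 24 comparisons between strains were made by exact permutation tests, and the Benjamini-Hochberg adjusted p was 1 for each.

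For the test of each mRNA, edgeR's quasi-likelihood fit over all 6 libraries kept 1329 RNAs with enough counts. Of the 53 genes 17 were kept: all 3 subunits of complex II, 6 of complex III, *cox5*, 5 of the ATP synthase, *ndi1* and *cyc1*. The number of these past an adjusted p of 0.05 was 0 for wild type against *aal1∆*, where 0.15% of all RNAs passed. It was 0 for *aal1-pOE* against *aal1∆*, where 0.376% passed (0.301% higher and 0.0752% lower), and 0 for *aal1-pOE* against wild type, where 0.226% passed. At an unadjusted p under 0.05 the counts were 0, 1 (*atp17*) and 0, against 2.48%, 5.42% and 4.21% of all RNAs. DESeq2 also called 0 in each comparison. The standard errors of the 17 mRNAs were 0.402 to 1.48 on the log2 scale, with 2 libraries per strain.

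The mRNAs with the smallest p in each comparison were still far from the threshold. In wild type against *aal1∆* these were *atp17* (log2 fold change 1.94, SE 1.39), *rip1* (0.83, SE 0.795) and *qcr7*, a small complex III subunit (-0.97, SE 0.946), each with an adjusted p of 0.999. In *aal1-pOE* against *aal1∆*, *atp17* had a log2 fold change of 3.18 (SE 1.37, adjusted p = 0.819). Its 95% interval in linear terms ran from 1.36-fold to 60.3-fold, and the adjusted p ranged from 0.338 to 1 over the alternatives. *atp5* (1.41, SE 1.42) and *cyc1* (0.63, SE 0.666) followed, both with an adjusted p of 0.9997. In *aal1-pOE* against wild type the 3 were *atp5* (2.13, SE 1.46), *atp17* (1.24, SE 1.23) and *atp1* (0.42, SE 0.517), each with an adjusted p of 0.995. Leaving out wild-type replicate 2, which held all 14 wild-type counts of *atp17*, turned its change against *aal1∆* to -4.29, fitted against libraries at 0 and so not a bound. Without *aal1-pOE* replicate 1 the change of *cyc1* turned to -0.46.

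**Figure D5:**
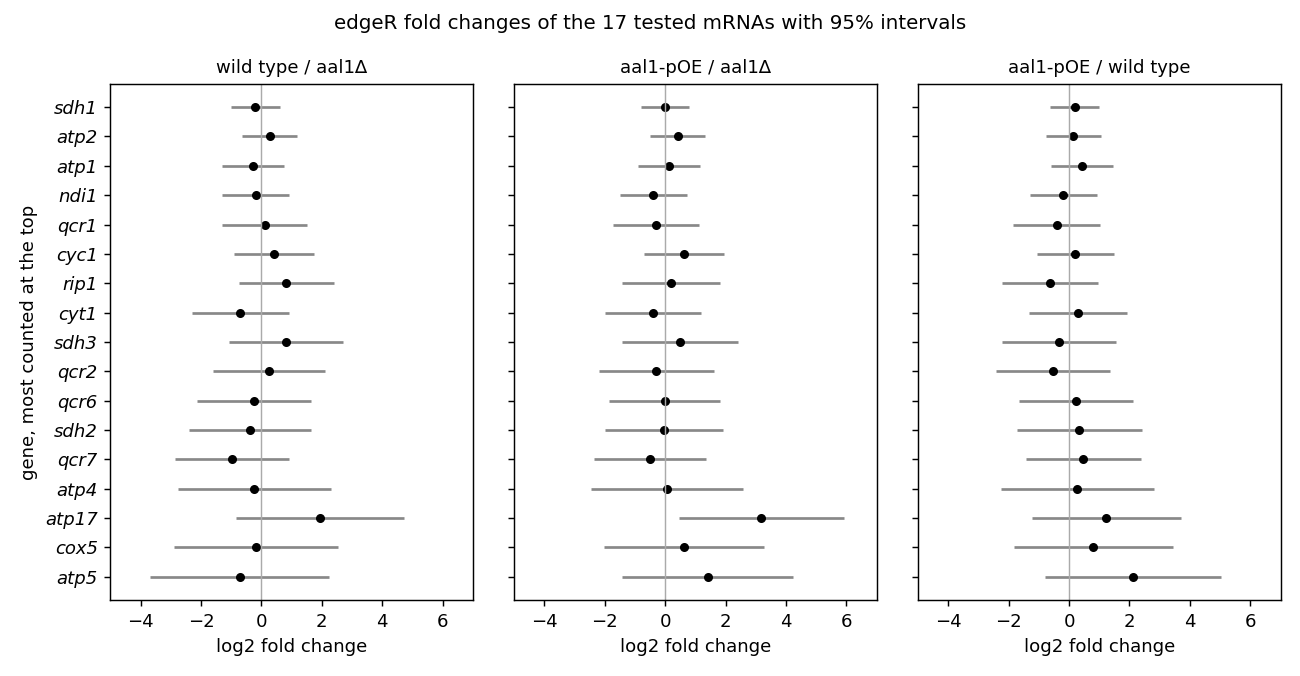
edgeR log2 fold change (x axis, points) with its 95% interval (bars) for the 17 tested mRNAs (y axis, most counted at the top) in the 3 comparisons. Every interval includes 0 except that of *atp17* in *aal1-pOE* against *aal1∆*, whose adjusted p was 0.819.

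Over the 17 tested mRNAs, the median log2 fold change was -0.19 for wild type against *aal1∆* (7 mRNAs above 0), 0.05 for *aal1-pOE* against *aal1∆* (9 mRNAs above 0) and 0.24 for *aal1-pOE* against wild type (12 above 0). The medians over all 1329 RNAs were 0.00, 0.01 and 0.03, and 50.2%, 50.9% and 51.9% of these RNAs were above 0. In normalised counts, both wild-type libraries were above both *aal1∆* libraries for 1 mRNA (*sdh3*; 14.3% of all RNAs) and below for 1 (*qcr7*; 16%). Both *aal1-pOE* libraries were above both *aal1∆* libraries for 2 (*atp17* and *atp5*; 17.1%) and below for 1 (*ndi1*; 17.1%). Against wild type, *aal1-pOE* was above for 3 (*atp5*, *cox5* and *cyt1*; 17.8%) and below for 2 (*qcr1* and *sdh3*; 16.5%). With 17 mRNAs, counts of 1 to 3 are too few to set apart from these shares of all RNAs. *atp5* met the filter only through its *aal1-pOE* libraries, and *atp17* only through those and wild-type replicate 2. *cox5* met it only in *aal1-pOE* replicate 1 and *aal1∆* replicate 2. The orders of *atp5*, *atp17* and *cox5* here were thus partly fixed by the filter. The 3 comparisons share libraries and are not independent of each other.

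The median difference between strains was no larger than that between replicates, though means of 2 libraries vary less than single libraries by construction. Between the 2 libraries of a strain, the median absolute log2 difference over the 17 mRNAs was 0.51 for wild type, 0.56 for *aal1-pOE* and 0.86 for *aal1∆*. Between the means of 2 strains it was 0.46 (wild type minus *aal1∆*), 0.43 (*aal1-pOE* minus *aal1∆*) and 0.32 (*aal1-pOE* against wild type). In *aal1∆*, 12 of the 17 were higher in replicate 1, the deeper library. The rank order of the 53 mRNAs was alike across libraries, as a description: Spearman's rho was 0.605 to 0.778 for the 3 pairs of libraries of the same strain and 0.455 to 0.825 for the 12 pairs of different strains, over 53 mRNAs that share transcript length and low counts.

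Other genes of the pathway gave few calls. Of 7 listed mitochondrially encoded partners, 2 could be matched to a name in the table, *cox3* and *atp9*. Between them 1 passed the test in *aal1-pOE* against *aal1∆* (*atp9*, SPMIT.10, higher), 0 in the other comparisons, and 0 by DESeq2 in any. The median log2 fold change of the 2 was 0.87 for wild type against *aal1∆*. It was 1.60 for *aal1-pOE* against *aal1∆* and 0.73 for *aal1-pOE* against wild type. In the same order 1, 2 and 1 of the 2 had an unadjusted p under 0.05 by edgeR. The 11 mitochondrially encoded protein and rRNA genes in the table held 653 to 2794 counts per library. Of 12 genes of the TCA cycle, which makes the NADH and succinate that the chain oxidises, 10 were tested and 0 passed in any comparison, with median log2 fold changes of -0.10, -0.11 and 0.27, and 1, 2 and 1 had an unadjusted p under 0.05. Of 12 matched genes of coenzyme Q synthesis 10 were detected, 1 was tested and 0 passed. Of 5 other quinone-linked dehydrogenases and partners of the ATP synthase 3 were tested and 0 passed. Of 16 matched assembly factors with other symbols 15 were detected and 0 were tested.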

How the data were processed

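RNA from *aal1* pull-downs of 6 libraries, 2 per strain, was analysed. The authors aligned read pairs (HISAT2 2.2.1) and tallied them over whole genes, introns included (HTSeq 0.12.3, reverse strand mode), and the deposited table holds these raw counts. The mapping command names the opposite strand, and the strand counted was taken to be that of each gene. The sources used here do not name the genome release. Names, lengths and coordinates came from RefSeq assembly ASM294v3, to which 6852 of 7001 identifiers matched. On the annotated strand 6 of the 53 genes overlap a neighbour, and 45 overlap an antisense gene.

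Counts were normalised by TMM, filtered by filterByExpr and tested with edgeR 4.0.16 (glmQLFit, glmQLFTest; R 4.3.3, limma 3.58.1) on all 6 libraries by strain, with Benjamini-Hochberg adjustment over 1329 RNAs and a threshold of 0.05. The common dispersion was 0.243. The fit was tested on simulated counts. The standard error is the log2 fold change over the square root of F. Levels per kb use annotated exon length. Complementary stretches were the longest exact matches of a spliced transcript to the reverse complement of *aal1*, without G-U pairs. Alternatives were 2 other normalisations, a fit without rRNA, mitochondrial genes, *aal1* and its antisense RNA SPNCRNA.401, 2 other filters, DESeq2 1.42.0, the likelihood ratio test, only the strains compared, the replicate number as a block, other denominators of the share, and each library left out.

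Members, gene lists and tests were chosen with earlier results of these data known. Genes were named by rule: the 10 most counted, the 3 smallest p per comparison, and *cyc1*, *cyt1*, *rip1* and *ndi1*. Other members given with values, such as *cox14*, *atp3*, *cox4*, *cox9*, *cox5*, *atp12*, *sdh2*, *atp25*, *sdh7* and *atp23*, lie outside it and were chosen after their values were seen. Depth was 40653 to 175263 counts per library.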

Additional observations from a re-analysis of the deposited data

How the results depend on the processing

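The count of the 53 mRNAs past the threshold stayed at 0 in each of the 45 results from alternative fits of the 3 comparisons. Without a filter on low counts 49 were tested, and 0 passed, where 3, 6 and 3 of all 5174 RNAs passed in the 3 comparisons. With so few of all RNAs past the threshold, a count of 0 says little about these mRNAs. The median log2 fold change of *aal1-pOE* against wild type moved from 0.238 to 0.0484 with library size as the scale. With single libraries left out, the median ranged from -0.25 to 0.24 for wild type against *aal1∆*, from -0.19 to 0.49 for *aal1-pOE* against *aal1∆* and from 0.10 to 0.31 for *aal1-pOE* against wild type. The share of nuclear mRNA counts differed by -0.176 to 0.130, -0.0160 to 0.290 and 0.0672 to 0.252 percentage points. With all 6 libraries, the share in *aal1-pOE* minus that in wild type was 0.160 percentage points. It was 0.0391 with all counts as denominator, where the libraries of these strains overlapped. With all counts except rRNA, *aal1* and SPNCRNA.401 it was 0.147. The highest medians against *aal1∆*, 0.24 and 0.49, came without *aal1∆* replicate 1, when the shallow replicate 2 stood for the strain and was assumed to vary like the others. There the log2 fold changes for wild type against *aal1∆* were 5.92 for *atp17*, 2.61 for *rip1*, 0.31 for *sdh1* and -1.03 for *qcr7*. In the *aal1∆* library that is left, *atp17*, *qcr1* and *sdh3* had 0 counts. *cox13* went the other way, with 11 counts there against 4 and 0 in wild type.

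Among single mRNAs, leaving out libraries gave ranges of -4.29 to 5.92 for *atp17* in wild type against *aal1∆* and -0.46 to 1.29 for *cyc1* in *aal1-pOE* against *aal1∆*. Both ends for *atp17* are fitted against a single library at 0 counts and are no bounds. For *atp1* in *aal1-pOE* against wild type the range was -0.0117 to 0.93. For *sdh1* the ranges were -0.52 to 0.31, -0.34 to 0.47 and -0.13 to 0.49, and its change in *aal1-pOE* against *aal1∆* turned to 0.0297 with RLE size factors and 0.0350 with DESeq2. The cause was not tested.

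Replicate numbers showed no clear pairing of the libraries. Over 1329 RNAs the deviations of replicate 1 correlated at 0.0470 (*aal1∆* and wild type), -0.0522 (*aal1∆* and *aal1-pOE*) and 0.0886 (wild type and *aal1-pOE*). Over the 17 mRNAs the correlations were -0.0328, -0.290 and 0.305 in the same order. At such low counts these values cannot exclude a shared batch. With the replicate block, 0 of the 17 mRNAs passed, with medians of -0.18, 0.09 and 0.22, and 2, 4 and 3 of all RNAs passed.

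Depth and the number of libraries, 2 per strain, are limits. Of the 53 mRNAs 17 had enough counts for a test, and 1 library of 2 often held most counts of an mRNA.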
